A study of Mus musculus with 3 samples.

Results

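Integrins, Cd44, Cxcr4 and Cd47 are surface receptors through which haematopoietic stem and progenitor cells hold on to the bone marrow niche, migrate towards it and signal to macrophages. The 10 genes Itga4, Itga6, Itgal, Itgb1, Itgb2, Itgb3, Itgb7, Cd44, Cxcr4 and Cd47 were taken by symbol from the 24982 gene symbols of the series, and all 10 were listed for each library. They were selected on name as niche adhesion and homing receptors, by a list drawn up with the counts of these KO and WT libraries known; the files do not show which counts guided it, and every KO against WT value below is a description. Bulk mRNA was sequenced from flow-sorted LKS cells (Lin-Kit+Sca1+), the mouse bone marrow fraction that holds stem and early progenitor cells. The titles and cell type labels name LKS cells, whereas the description field of all 3 samples says LLP cells, which the labels do not explain; LKS is used here. One library came from CD73-/- recipient mice (the KO library, n = 1) and 2 came from WT recipient mice. CD73 is the product of Nt5e, an ectoenzyme that makes adenosine from AMP outside the cell. The labels call the mice recipients in both groups, and the labels used here do not state strain, age, conditioning, whether the sorted cells derived from donors or recipients, or whether a library pooled animals. Test results therefore set the KO library against the spread of the 2 WT libraries only, which KO is taken to share. That spread may be technical.

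Integrins are heterodimers of an alpha and a beta subunit. The alpha4 subunit (Itga4) pairs with beta1 (Itgb1) to bind VCAM-1 and fibronectin, and with beta7 (Itgb7) to bind MAdCAM-1 and VCAM-1. The alpha6 subunit (Itga6) binds laminins, alphaL (Itgal) with beta2 (Itgb2) forms LFA-1 and binds ICAMs, and beta3 (Itgb3) pairs with alphaIIb or alphav. Cd44 is a receptor for hyaluronan, Cxcr4 is the receptor for the marrow chemokine Cxcl12 and holds progenitors in the niche, and Cd47 is the ligand of Sirpa on macrophages that restrains their uptake of the cell.

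The regions upstream of the start sites are shown for Itgb7, Cxcr4 and Cd47, which lay furthest from both WT libraries among the 6 members found in the RefSeq promoter table (GRCm38.p6, the assembly behind mm10). Each run gives the 250 bases before an annotated transcript start, 5′ to 3′ on the gene's strand, with matches to the 6 motifs searched in capitals. The Cxcr4 window abuts the outer bound of the gene. The Itgb7 and Cd47 windows lie inside the gene bounds given below, before an internal start, and motif positions are counted from that start. For Cd47 the first of its overlapping windows in the table is shown.
Itgb7 (chr15:102231936-102232185, minus strand): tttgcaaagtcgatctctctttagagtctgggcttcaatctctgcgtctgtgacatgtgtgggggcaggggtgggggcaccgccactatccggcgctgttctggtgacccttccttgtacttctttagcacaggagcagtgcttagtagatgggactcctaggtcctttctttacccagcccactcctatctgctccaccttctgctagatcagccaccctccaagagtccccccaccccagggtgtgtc
Cxcr4 (chr1:128592300-128592549, minus strand): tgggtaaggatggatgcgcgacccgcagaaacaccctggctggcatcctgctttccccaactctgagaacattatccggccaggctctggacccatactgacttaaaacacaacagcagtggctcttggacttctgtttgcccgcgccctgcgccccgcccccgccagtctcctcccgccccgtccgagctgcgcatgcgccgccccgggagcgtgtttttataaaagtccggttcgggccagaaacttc
Cd47 (chr16:49855404-49855653, plus strand): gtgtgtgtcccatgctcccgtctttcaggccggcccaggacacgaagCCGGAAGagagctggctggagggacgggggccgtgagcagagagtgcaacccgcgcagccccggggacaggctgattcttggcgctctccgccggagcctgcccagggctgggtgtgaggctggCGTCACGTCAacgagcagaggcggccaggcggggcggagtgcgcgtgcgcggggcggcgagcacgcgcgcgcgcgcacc
The motifs, searched on both strands, were the CRE half-site TGACG, the RUNX motif TGTGGT, the ETS motif CCGGAAG, the GATA motif AGATAA, the hypoxia response core ACGTG and the E-box CACGTG, which contains ACGTG. The Cd47 window held CGTCA, the reverse complement of the CRE half-site, at -79 to -75 and again at -74 to -70, with a hypoxia response core on the opposite strand at -76 to -72 that overlaps both, and an ETS match at -203 to -197. None of the 6 motifs was matched in the Itgb7 and Cxcr4 windows. Among 32851 upstream windows of the same length, 17.8% held the CRE half-site, 16.6% the hypoxia response core and 6.91% the ETS motif, against 14.0% for RUNX, 9.99% for GATA and 6.02% for the E-box. GC content was 56.0% for Itgb7, 61.2% for Cxcr4 and 73.2% for Cd47, against a median of 52.4% over all windows. These matches describe the letters of the windows and were not compared with binding.

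The libraries were shallow, with 264704 gene-level counts in KO and 361638 and 324954 in WT replicates 1 and 2. A single count was thus worth 3.78, 2.77 and 3.08 CPM (counts scaled to the library's total of gene counts) in these libraries. Nt5e, the deleted gene, had 0 counts in each of the 3 libraries and gave no check of genotype. Kit and Ly6a (Sca1), which define the sorted gate, had 147 and 36 counts in KO, 187 and 60 in WT replicate 1 and 207 and 19 in WT replicate 2. The 9 surface markers of the gate and of its stem and progenitor subsets summed to 1572 CPM in KO, against 2171 and 2542 CPM in WT. Over genes with at least 10 counts in a pair, chi-square per gene was 12.8 and 14.1 between KO and WT replicates 1 and 2, and 12.4 between the WT libraries themselves, where counting error alone gives about 1. By this measure the WT libraries differed from each other nearly as much as from KO. The measure grows with depth and was not scaled for it, and the WT pair was deeper than either pair with KO. The 95% intervals given for the receptors are exact Poisson or conditional binomial intervals and cover counting error only.

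Set against both WT libraries, the KO library had more mRNA of Itgb7 and Cxcr4 and less of Cd47, Itgb3 and Cd44, while Itga4, Itgb1 and Itgb2 lay close to the WT values. The KO value was above both WT values for 2 receptors, below both for 5 and between them for 3. Among the 7984 genes in the fit, 31.1% lay above both and 38.2% below both. None of the 10 receptors passed the edgeR quasi-likelihood test at an adjusted p of 0.05, where 0.100% of all tested genes were called, and the adjusted p values ranged from 0.149 to 0.989. At an unadjusted p under 0.05 the same test had 3 of the 10 receptors (Itgb7, Itgb3 and Cd47), beside 802 of all 7984 genes. DESeq2 on the same genes had 2 of the 10 receptors (Itgb3 and Cd47), beside 1055 of all 7984 genes. Its unadjusted p for Itgb7 was 0.536, against 0.00396 with edgeR. At an adjusted p of 0.05 DESeq2 called 1 receptor, Cd47, and 0.316% of the genes to which it gave an adjusted p. By size alone, the KO value was at least 2-fold from both WT libraries (CPM plus 1) for 5 receptors, 2 higher and 3 lower, against 36.4% of all genes in the fit (13.0% higher, 23.4% lower). Among the 6 receptors with at least 50 counts in some library it was so for 4, 2 higher and 2 lower, against 27.2% of such genes (9.25% higher, 17.9% lower). Each of these 4 reached 50 counts only in the group where it was high. This filter thus draws on the same values as the size rule, and the share of 4 in 6 is not read as enrichment. The receptors were listed with earlier results of these libraries known, so these counts describe them and are not evidence on the list.

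**Figure D1:**
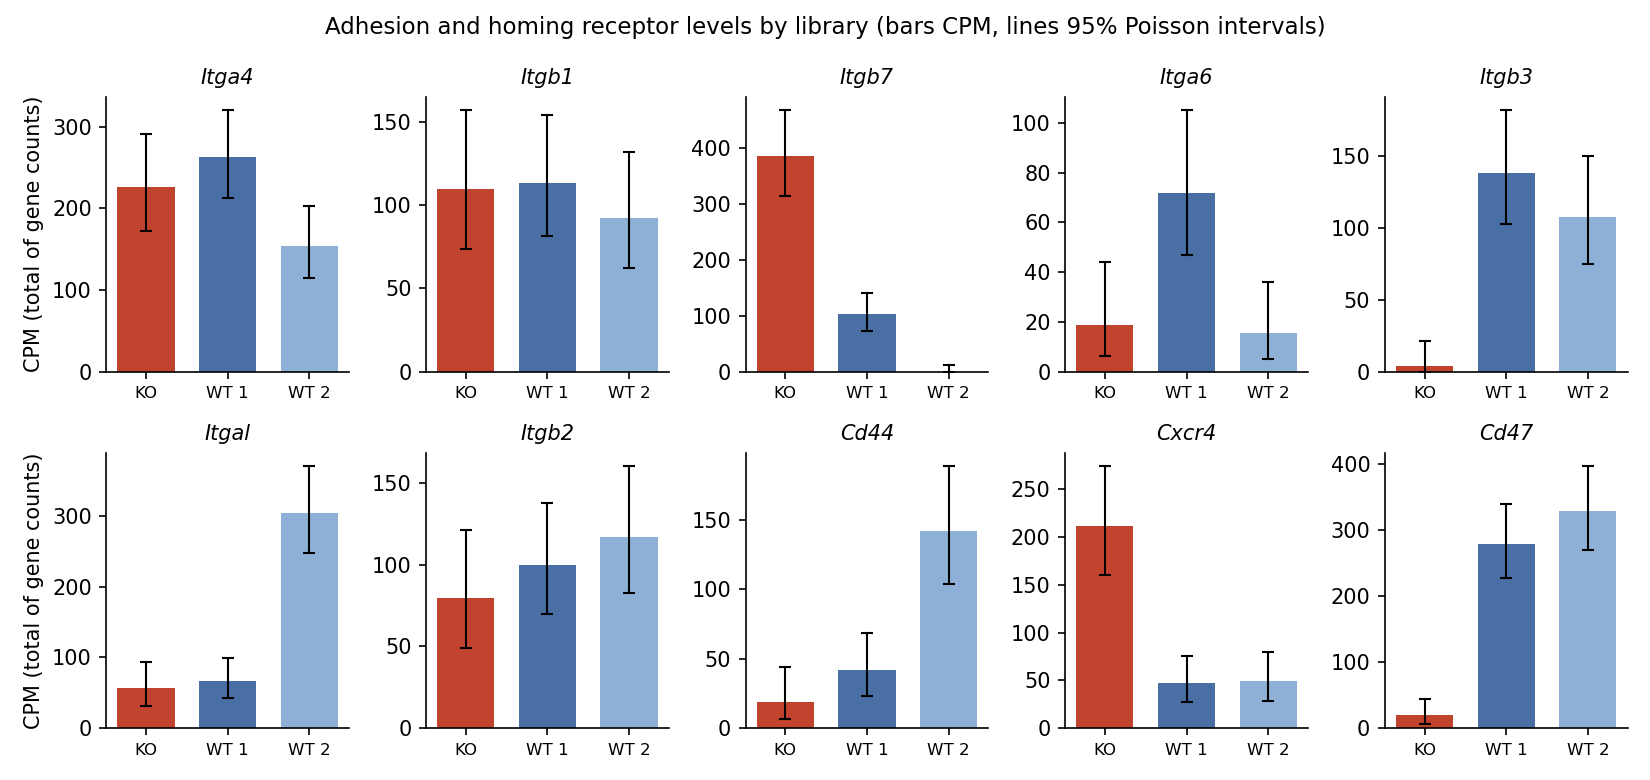
CPM of each receptor in the KO library (red) and WT replicates 1 and 2 (blue), with each panel on its own scale from 0 and lines giving 95% Poisson intervals of the count. Itgb7 and Cxcr4 are highest in KO at 385 and 212 CPM, and Cd47 and Itgb3 are lowest in KO at 18.9 and 3.78 CPM.

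The beta subunits that share the alpha4 partner had unlike values. Itgb7 (chromosome 15, 102215994 to 102233405, mm10, protein-coding) had 102 counts or 385 CPM in KO (interval 314 to 468), against 37 counts or 102 CPM in WT replicate 1 (72.0 to 141) and 0 counts in WT replicate 2. Taking 3 counts per library as the floor, a count of 0 allows up to 9.23 CPM there, and the upper end of its exact Poisson interval was 11.4 CPM. The KO library was thus the highest, and the WT libraries were themselves apart, WT replicate 2 being at least 11.1-fold below WT replicate 1 by that floor. The KO level was 3.77-fold that of WT replicate 1 (2.56 to 5.65) and at least 41.7-fold that of WT replicate 2 by the same floor. The fitted log2 fold change of KO over WT was 2.92 (SE 1.01). It was 1.94 without WT replicate 2, and without WT replicate 1 the 3-count floor gives at least 5.38.

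Itgb1 (chromosome 8, 128685654 to 128733579), the common beta subunit of the very late antigen integrins, had 29 counts or 110 CPM in KO, against 41 counts or 113 CPM in WT replicate 1 and 30 counts or 92.3 CPM in WT replicate 2. The 3 libraries overlapped within counting error, and the log2 fold change was 0.13 (SE 1.25). Itga4 (chromosome 2, 79255426 to 79333114) had 60 counts or 227 CPM in KO, against 95 counts or 263 CPM in WT replicate 1 and 50 counts or 154 CPM in WT replicate 2. The KO value lay between the WT values, and the log2 fold change was 0.16 (SE 0.92). Exons of Itga4 overlap 1124 bases of Cerkl on the opposite strand, but Cerkl had 0 counts in each library.

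On the length-scaled FPKM level, which allows genes to be compared, Itgb7 stood at 146 in KO, against 38.5 and 0 in WT replicates 1 and 2. Itgb1 stood at 26.5 in KO, against 27.2 and 22.2 in WT, and Itga4 at 23.8 in KO, against 27.3 and 16.04 in WT. The ratio of Itgb7 to Itgb1 FPKM was therefore 5.52 in KO and 1.42 in WT replicate 1, with no Itgb7 read in WT replicate 2. The ratio of Itga4 to Itgb1 FPKM was 0.898 in KO, against 1.01 and 0.723 in the WT libraries. Of Itga4, Itgb1 and Itgb7, Itgb7 was thus the one far from both WT values in KO.

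Itga6 (chromosome 2, 71786886 to 71858427) was sparse. It had 5 counts or 18.9 CPM in KO, against 26 counts or 71.9 CPM in WT replicate 1 and 5 counts or 15.4 CPM in WT replicate 2. KO and WT replicate 2 were alike and WT replicate 1 was high. The fitted log2 fold change was -1.16 (SE 2.29), and KO over WT replicate 2 alone was 1.23-fold (0.283 to 5.33), on the other side of equality.

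**Figure D2:**
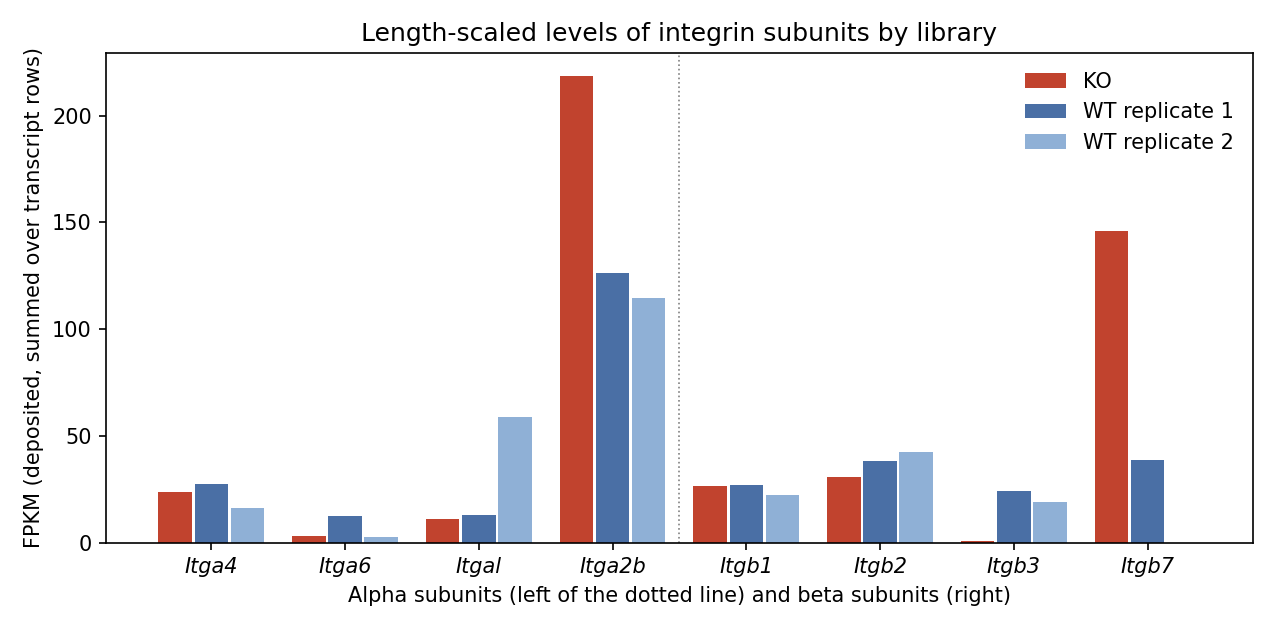
Deposited FPKM, summed over transcript rows, of integrin alpha subunits (left of the dotted line) and beta subunits (right) in KO (red) and WT replicates 1 and 2 (blue). Itgb7 reaches 146 in KO, against 38.5 and 0 in WT, while Itgb3 is at 0.663 in KO, against 24.0 and 18.8 in WT.

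Itgb3 was represented by a single read in the KO library. The gene (chromosome 11, 104608000 to 104670476) had 1 count or 3.78 CPM in KO (0.0956 to 21.0), against 50 counts or 138 CPM (103 to 182) in WT replicate 1 and 35 counts or 108 CPM (75.0 to 150) in WT replicate 2. The WT libraries overlapped within counting error and both lay above KO. The KO level was 36.6-fold below WT replicate 1 (6.27 to 1474) and 28.5-fold below WT replicate 2 (4.79 to 1158), and the log2 fold change was -4.85 (SE 2.01). A single KO count carries this value, so its size is poorly bounded.

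Itga2b, the alphaIIb partner of beta3 and a megakaryocyte and early progenitor marker, did not share that pattern. It had 196 counts or 740 CPM in KO, against 156 counts or 431 CPM and 127 counts or 391 CPM in WT replicates 1 and 2. Itgav, the other alpha partner, had 11 counts in KO, against 11 and 3 in WT. The ratio of Itgb3 to Itga2b FPKM was 0.00303 in KO, against 0.191 and 0.164 in WT. Among the 8 megakaryocyte and platelet markers, 5 had 0 counts in all libraries (Gp1bb, Gp6, Ppbp, Treml1 and Clec1b), Pf4 had 25 counts in KO, against 2 and 0 in WT, and Gp9 had 0 in KO, against 3 and 5 in WT. The summed level of that marker list was 835 CPM in KO, against 445 and 406 CPM in WT, most of it Itga2b. In bulk RNA, fewer cells of a type and less RNA per cell cannot be told apart.

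Of the LFA-1 subunits, Itgal differed mainly between the WT libraries, and Itgb2 was somewhat below both WT values in KO, within counting error. Itgal (chromosome 7, 127296139 to 127335137) had 15 counts or 56.7 CPM in KO, against 24 counts or 66.4 CPM in WT replicate 1 and 99 counts or 305 CPM in WT replicate 2. KO and WT replicate 1 overlapped within counting error and WT replicate 2 stood 4.59-fold above WT replicate 1 (2.92 to 7.50). The log2 fold change of -1.66 (SE 1.22) became -0.20 without WT replicate 2 and -2.37 without WT replicate 1. Itgb2 (chromosome 10, 77530329 to 77565708), the beta subunit of the leukocyte integrins, had 21 counts or 79.3 CPM in KO, against 36 counts or 99.5 CPM and 38 counts or 117 CPM in the WT libraries. All 3 intervals overlapped, and the log2 fold change was -0.41 (SE 1.32). The ratio of Itgal to Itgb2 FPKM was 0.360 in KO, against 0.336 in WT replicate 1 and 1.39 in WT replicate 2.

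Cd44 (chromosome 2, 102811141 to 102901669) had 5 counts or 18.9 CPM in KO (6.13 to 44.1), against 15 counts or 41.5 CPM (23.2 to 68.4) in WT replicate 1 and 46 counts or 142 CPM (104 to 189) in WT replicate 2. KO was the lowest library, but its interval overlapped that of WT replicate 1. The KO level was 2.20-fold below WT replicate 1 (0.759 to 7.72) and 7.49-fold below WT replicate 2 (2.99 to 24.2), and the log2 fold change was -2.21 (SE 1.79), or -1.09 without WT replicate 2 and -2.83 without WT replicate 1. The 6 transcript rows of Cd44 carried the same count in each library, so the counts do not separate its splice forms. The rows of Itgal, Itga6 and Cxcr4 were likewise identical within each gene.

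Mature myeloid cells also carry Itgal, Itgb2 and Cd44, and their summed markers were highest in WT replicate 2, while single markers went different ways. The summed level of the 9 mature neutrophil markers was 378 CPM in KO, against 824 CPM in WT replicate 1 and 1114 CPM in WT replicate 2, with Ly6g at 0 in all libraries and Mmp8 at 0 in KO and WT replicate 1. The 8 monocyte and macrophage markers summed to 586 CPM in KO, against 183 and 659 CPM in WT, with Cd14 and Mrc1 at 0 in all libraries. Lyz2, the most abundant of these in WT replicate 2, had 20 counts in KO, against 32 and 112 in WT. S100a9 had 136 CPM in KO, against 254 and 505 CPM in WT, but S100a8 had 144 CPM in KO, against 257 and 138 CPM in WT. Itgam was highest in KO, at 132 CPM, against 11.1 and 55.4 CPM in WT. Their part in the values of Itgal, Itgb2 and Cd44 was not tested.

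Cxcr4 was the receptor whose WT libraries were closest. Cxcr4 (chromosome 1, 128588199 to 128592299) had 56 counts or 212 CPM in KO (160 to 275), against 17 counts or 47.0 CPM (27.4 to 75.3) in WT replicate 1 and 16 counts or 49.2 CPM (28.1 to 80.0) in WT replicate 2. KO stood above both WT libraries without overlap of the counting intervals. The KO level was 4.50-fold that of WT replicate 1 (2.58 to 8.26) and 4.30-fold that of WT replicate 2 (2.43 to 8.02). The fitted log2 fold change was 2.17 (SE 1.22), and the adjusted p was 0.577 with edgeR and 0.382 with DESeq2. The WT mean was 48.1 ± 1.58 CPM (SD, n = 2), an SD far narrower than the counting interval of either WT library. Cxcl12, its ligand, had 8 counts in KO, against 0 and 0 in WT.

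Cd47 had the most abundant mRNA per length among the receptors in WT cells and one of the lower ones in KO. Cd47 (chromosome 16, 49851328 to 49912503) had 5 counts or 18.9 CPM in KO (6.13 to 44.1), against 101 counts or 279 CPM (227 to 339) in WT replicate 1 and 107 counts or 329 CPM (270 to 398) in WT replicate 2. The WT libraries overlapped, at 304 ± 35.4 CPM (SD, n = 2), and KO lay far below both. The KO level was 14.8-fold below WT replicate 1 (6.13 to 46.5) and 17.4-fold below WT replicate 2 (7.24 to 54.8). The log2 fold change was -3.94 (SE 1.23). The adjusted p was 0.149 with edgeR and 0.0352 with DESeq2 on the same genes, and between 0.141 and 0.653 under the other 7 settings. Sirpa, the receptor for Cd47, had 23 counts in KO, against 8 and 8 in WT, and the ratio of Cd47 to Sirpa FPKM was 0.406 in KO, against 19.1 and 24.98 in WT. The Cd47 count comes from a single transcript row.

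Some dendritic and monocyte markers had more counts in KO than in either WT library, and others did not. Clec9a, a marker of dendritic cells, had 27 counts in KO, against 0 and 0 in WT, and the 6 dendritic markers summed to 113 CPM in KO, against 11.1 and 6.15 CPM in WT, with Siglech, Zbtb46 and Batf3 at 0 in all libraries. Ccr2, a chemokine receptor of monocytes, had 39 counts in KO, against 0 and 6 in WT, and Csf1r had 14 in KO, against 0 and 4 in WT. In the same lists Itgax had 0 counts in KO, against 4 and 0 in WT, Ly6c2 had 47 in KO, against 30 and 70 in WT, and Lyz2 was lowest in KO. The 7 erythroid markers summed to 601 CPM in KO, against 426 and 129 CPM in WT, with Hba-a1, Hbb-bs and Klf1 at 0 throughout. The T and NK list summed to 155 CPM in KO, against 194 and 105 CPM in WT. Nkg7 alone had 155 CPM in KO, against 188 and 98.5 CPM in WT. The B lineage list summed to 7.56 CPM in KO, against 16.6 and 61.5 CPM in WT. The stroma and endothelium list summed to 132 CPM in KO, against 257 and 308 CPM in WT. Most of that sum was Pecam1 (98.2 CPM in KO, against 144 and 191 in WT) and Pdgfrb (3.78 CPM in KO, against 108 and 102 in WT). Cd3e, Cd79a and Cdh5 were at 0 in all libraries. The part of such cells in the values of Itgb7, Cxcr4 and Cd47 was not tested.

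**Figure D3:**
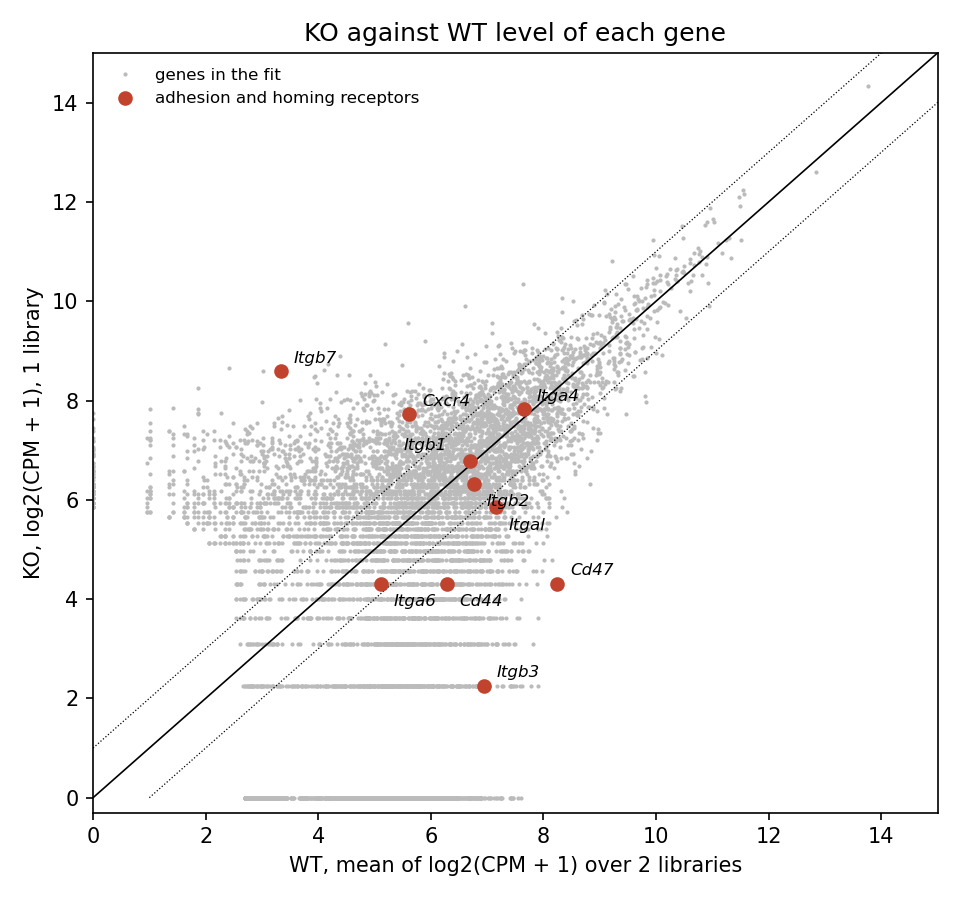
KO level against mean WT level of each gene in the fit, both as log2(CPM + 1), the WT value being the mean of the 2 logged values, with the receptors in red, the solid line at equality and dotted lines at a 2-fold difference. Itgb7 and Cxcr4 lie above the upper dotted line and Cd47, Itgb3, Cd44 and Itgal below the lower one, within a cloud of genes that is widest at low counts.

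Ordered by FPKM within the KO library, Itgb7 (146, interval 119 to 177) and Cxcr4 (119, interval 89.6 to 154) came first and did not differ beyond counting error. Itgb2 (30.6), Itgb1 (26.5) and Itga4 (23.8) followed with overlapping intervals, then Itgal (11.01) and Cd47 (10.004), then Cd44 (4.34), Itga6 (3.25) and Itgb3 (0.663). Cd47 led in both WT libraries, with 147 FPKM (119 to 178) in WT replicate 1 and 173 FPKM (142 to 209) in WT replicate 2, and no other receptor's interval reached it there. It ranked at percentile 33.7 of the genes with a count in KO, against percentiles 93.7 and 95.2 in WT. Cxcr4 ranked at percentile 89.4 in KO, against 60.01 and 61.4 in WT, and Itgb1 at 57.5 in KO, against 61.0 and 55.4 in WT. Summed over the 10 receptors the level was 1130 CPM in KO, against 1222 and 1311 CPM in WT, so the total was similar while its make-up differed. The make-up also differed between WT replicates 1 and 2, with Itgb7 at 102 and 0 CPM and Itgal at 66.4 and 305 CPM. For the 7 integrin subunits alone the sum was 880 CPM in KO, against 854 and 791 CPM in WT.

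The median log2 fold change of the 10 receptors was -0.78, against -0.31 over all tested genes, with 4 positive and 6 negative. Against a single WT library it was -0.10 without WT replicate 1 and -0.25 without WT replicate 2. The median over all genes against a single WT library is not given, so these values have no like background. The spread among the receptors, from -4.85 for Itgb3 to 2.92 for Itgb7, was far wider than the gap between -0.78 and -0.31.

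**Figure D4:**
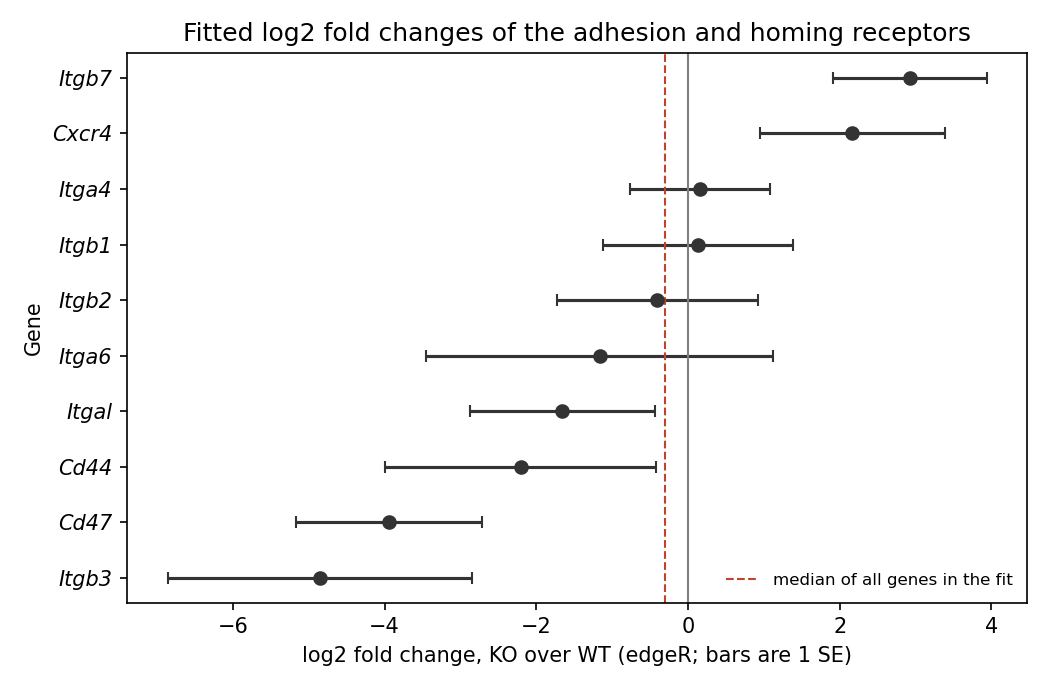
Fitted log2 fold changes of KO over WT for the 10 receptors (edgeR), with bars of 1 SE, the grey line at 0 and the dashed line at the median of all genes in the fit, -0.31. Itgb7 at 2.92 and Cxcr4 at 2.17 lie to the right, and Cd44, Cd47 and Itgb3 to the left at -2.21, -3.94 and -4.85.

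The rest of the adhesion pathway was read from 7 lists of 123 symbols, 122 of which were in the files. Of these, 72 were tested and none passed the edgeR test (lowest adjusted p 0.211). At an unadjusted p under 0.05 in that test, 4 of the 72 were higher and 2 lower, beside 802 of all 7984 tested genes. DESeq2 also called 0 of the 72. Among 15 other integrin alpha subunits, 5 were tested and all 5 had a positive log2 fold change, with a median of 1.08. The filter on low counts could admit a gene on the counts of any single library, KO, as for Itga1, or WT. Itga3 and Itgax, each with 0 counts in KO, against 4 and 0 in WT, were not tested. The part of the filter in the shared sign was not tested, and the sign is no result on the list. Itga1, a collagen receptor subunit, had 33 counts in KO, against 0 and 3 in WT, and Itgam, the alphaM subunit of myeloid cells, had 35 in KO, against 4 and 18 in WT. Itga5, the fibronectin receptor subunit, had 22 counts in KO, against 41 and 16 in WT. Of the other beta subunits, Itgb4, Itgb6 and Itgb8 had 0 counts in all libraries and Itgb5 had 0 in KO, against 0 and 1 in WT, so the 4 beta genes described above carried nearly all beta subunit reads.

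Of 28 integrin activators and adaptors, 20 were tested, 7 positive and 13 negative, with a median of -0.80. Fermt3 (kindlin-3), which binds beta tails and activates the integrin, had 136 counts or 514 CPM in KO, against 371 and 280 CPM in WT. Rasgrp2, the exchange factor that loads Rap1 with GTP, had 50 counts or 189 CPM in KO, against 465 and 412 CPM in WT. Parvg, a parvin that links integrins to actin, had 219 CPM in KO, against 412 and 394 CPM in WT, and Zyx, a focal adhesion protein, had 276 CPM in KO, against 210 and 455 CPM in WT.

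Among 23 other homing and adhesion receptors, 15 were tested, 5 positive and 10 negative, with a median of -0.78. Selplg, the P-selectin ligand PSGL-1, had 116 counts or 438 CPM in KO, against 71.9 and 218 CPM in WT. Emb (embigin) had 26.4 CPM in KO, against 133 and 203 CPM in WT, and Bsg (basigin) had 110 CPM in KO, against 260 and 132 CPM in WT. KO was below both WT libraries for Emb and Bsg and above both for Selplg.

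Of 26 genes of Cxcr4 signalling, 22 were tested, 8 positive and 14 negative, with a median of -0.13. Gnai2, the inhibitory G protein alpha subunit through which the receptor signals, had 499 CPM in KO, against 429 and 659 CPM in WT, and Gnb2 had 344 CPM in KO, against 354 and 443 CPM in WT. The GTPase Cdc42 had 268 CPM in KO, against 252 and 314 CPM in WT, and Grk2, a kinase that desensitises such receptors, had 502 CPM in KO, against 957 and 655 CPM in WT. These 4 genes lay nearer to the WT values than Cxcr4 did. Rac1, a GTPase that drives the actin response and was named after its values were seen, had 145 counts in KO, against 47 and 39 in WT, with a log2 fold change of 2.17 close to that of Cxcr4. Rgs1 and Jak2, named in the same way, went in the other direction. Rgs1 had 0 counts in KO, against 8 and 26 in WT, and Jak2 had 2 in KO, against 30 and 12 in WT.

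Ligands and counter-receptors were sparse, with 7 of 20 at 0 counts in all libraries and 5 tested, with a median of -0.22. Srgn, a proteoglycan that can bind Cd44, had 321 CPM in KO, against 268 and 502 CPM in WT, Icam2 had 121 CPM in KO, against 113 and 70.8 CPM in WT, and Icam1 had 41.6 CPM in KO, against 80.2 and 120 CPM in WT. Among 7 ERM proteins and membrane linkers, which tie Cd44 to the cytoskeleton, 5 were tested, with a median of -0.03. Msn (moesin) had 385 CPM in KO, against 180 and 634 CPM in WT, Ezr (ezrin) had 45.3 CPM in KO, against 166 and 12.3 CPM in WT, Slc9a3r1 had 56.7 CPM in KO, against 66.4 and 40.0 CPM in WT, and Nf2 (merlin) had 65 counts or 246 CPM in KO, against 5.53 and 40.0 CPM in WT.

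**Figure D5:**
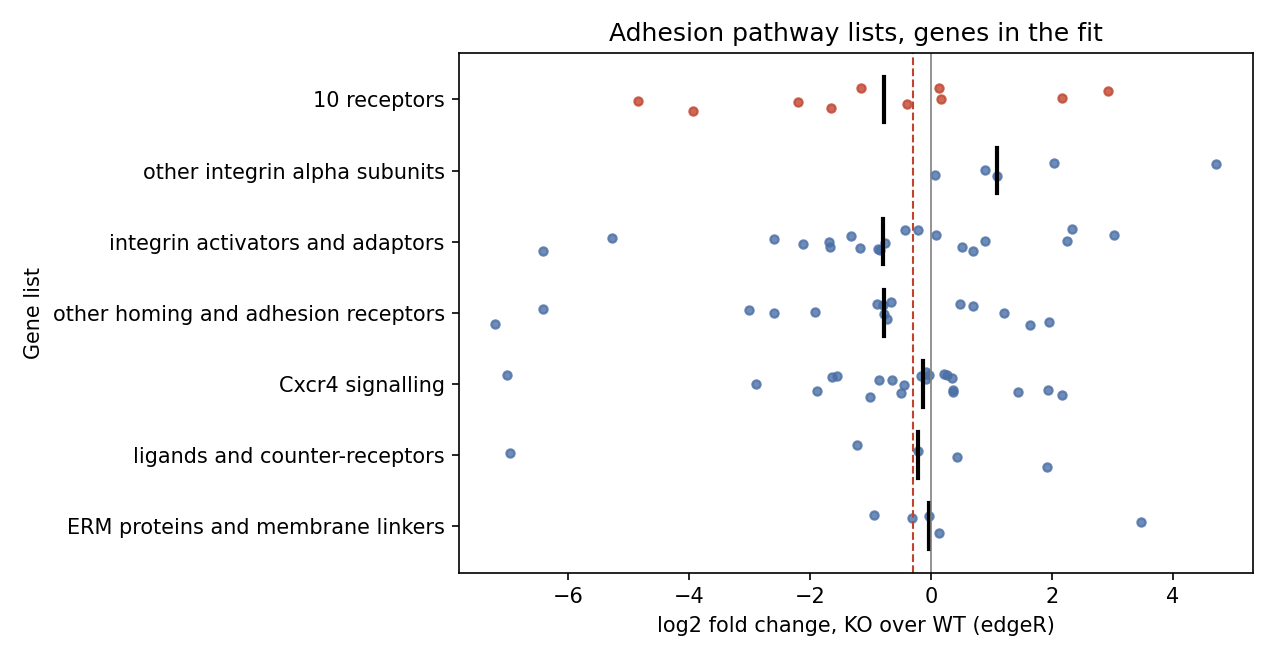
Log2 fold change of KO over WT (edgeR) of each gene in the fit, for the 10 receptors (red) and the adhesion lists (blue), with black bars at list medians, the grey line at 0 and the dashed line at the median of all genes, -0.31. List medians lie between -0.80 and 1.08, and points beyond -6 are genes with 0 KO counts, whose fitted values are no bounds.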

How the data were processed

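Total RNA (RNeasy micro kit) of LKS cells was made into NEB libraries, per the labels' protocols, 1 KO and 2 WT, grouped by title. The authors deposited read counts and FPKM for each RefSeq transcript. STAR and mm10 are named in the submitters' processing notes; neither the counting tool nor strand use is given there. Of 42574 transcript rows, 0 named no gene. Rows of a gene repeat shared reads, so the gene count was the highest over its rows. FPKM was summed over rows.

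CPM used the total of gene counts. The test was edgeR 4.0.16 under R 4.3.3 (filterByExpr, TMM, quasi-likelihood F-test, Benjamini-Hochberg over 7984 genes, threshold 0.05), which all 10 receptors entered. The WT pair gives the 1 residual degree of freedom, whose spread the single KO library is taken to share. SE was the absolute log2 fold change over the square root of F. The code of the fits was tested on simulated data. DESeq2 1.42.0 was an alternative. Depth was 264704 to 361638 counts, and floors used 3 counts.

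The receptors and lists were chosen with earlier results of these data known. Named genes were all 10 receptors and, from each pathway or marker list, genes past the test and up to 4 with the highest mean FPKM. Itga3, Itgav, Csf1r, Rac1, Rgs1, Jak2 and the markers at 0 were named after their values were seen. Some genes of these lists are not reported here. Coordinates and promoters are from RefSeq GRCm38.p6 and overlaps from GENCODE M21.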

Additional observations from a re-analysis of the deposited data

How the results depend on the processing

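The number of genes past the test was 8 with edgeR as described. It was 4 with no filter on low counts (833 by unadjusted p), 0 with at least 10 counts in every library or 50 in any (340), 1 with the mean count over rows, 1 with the lowest count over rows, 13 with the DESeq2 Wald test, and 0 with DESeq2 on all genes with a count (621), a setting added after the data were seen. The number of receptors past the test was 0 in each edgeR setting and 0 with DESeq2 on all genes with a count, and 1, Cd47, with the DESeq2 Wald test. The median log2 fold change of the receptors was -0.16 over the 8 receptors left with at least 10 counts in every library or 50 in any (Itga6 and Cd44 dropped out), -0.36 on FPKM of the row with the highest count, and -0.55 on FPKM summed over rows, which was added after the data were seen. It was -0.10 and -0.25 when either WT library was left out. Of the 2831 genes that reached 50 counts in any library, 1312 to 1411 were at least 2-fold from a single WT library and 770 from both, since a single library sets fewer conditions. Among all 10 receptors, whatever their counts, 6 were so against either WT library. Against both it was 5 receptors, where 36.4% of all genes in the fit were so. The share of all genes in the fit against a single WT library is not given, so the 6 receptors have no like background.

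With either WT library left out, the log2 fold change changed sign for 3 receptors: for Itga4 it ranged from -0.18 without WT replicate 2 to 0.61 without WT replicate 1, for Itgb1 from -0.020 to 0.30 in the same way, and for Itga6 from -1.88 without WT replicate 2 to 0.34 without WT replicate 1. Of the other values of single receptors under the alternatives, 109 kept their direction and side of the threshold or stayed within the WT spread, 5 moved by more than the WT spread and 1, Cd47 with DESeq2, passed the threshold. These groups do not rank the changes by size. On FPKM of the row with the highest count, Cxcr4 counted as moved at 2.11, against 2.17. Itgb7 did not count as moved at 4.55, against 2.92. The cause of these changes was not tested. No filter on low counts gave a median over all genes of -0.60, against -0.31, and at least 10 counts in every library or 50 in any gave -0.10; the other edgeR scalings gave -0.29 and -0.35. Tests were not run on FPKM or with a WT library left out, since no residual degree of freedom or count is left there. No paired analysis was possible because the KO title carries no replicate number. Depth limits Itgb3, Itga6, Cd44 and Cd47 most, each with 1 or 5 KO counts.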
